A study of Mus musculus with 28 samples.

Results

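Of the 28661 features counted in this mouse brain series, 82 had more reads in single neurons of hippocampal slices than in bulk hippocampus, whether the neuron was captured with TIVA or drawn up with a pipette. They were chosen by the mean of log2(CPM + 10), where CPM is counts-per-million, a count scaled to the reads assigned to features in its library. A member lay at least 1 above bulk in both kinds of tissue neuron, on that log2 scale. Features that also lay at least 1 above the cultured hippocampal neurons of the same collection method, for both methods, were left out. The first condition held for 145 features, the second removed 63 of them, and 82 remained. The members were selected on the measured values of hippocampal tissue, bulk and cultured hippocampal libraries, so their levels in those libraries are a description. No library of a cortical neuron entered the selection.

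Bulk brain tissue mixes the RNA of neurons with that of astrocytes, oligodendrocyte-lineage cells, microglia and blood vessel cells, so a transcript confined to neurons is diluted there. TIVA (transcriptome in vivo analysis) loads cells with a caged oligonucleotide tag. A laser uncages the tag inside a chosen cell, and the opened tag then hybridises to the poly(A) tails of that cell's mRNA so that it can be pulled out. A pipette instead draws up the cell body with whatever adheres to it. Neurons in an acute slice still sit among their neighbours and glia, while cultured neurons have regrown their processes on a coverslip.

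The series holds 28 libraries of polyadenylated RNA from C57BL/6 mice, 25 of them from single neurons, in 8 groups. Acute coronal slices of animals 8 to 10 days old gave 5 hippocampal TIVA neurons, 3 hippocampal pipette neurons, 2 cortical TIVA neurons and 3 bulk hippocampus libraries. Neurons kept on coverslips for 7 to 9 days gave 4 hippocampal TIVA, 3 hippocampal pipette, 4 cortical TIVA and 4 cortical pipette libraries. TIVA tag was applied to slices at 30 µM for 90 min with the laser at 80% power, and to cultures at 10 µM for 15 min with the laser at 30% power. Pipette neurons and bulk tissue had no treatment. Both TIVA protocols had the imaged field aspirated together with the photolysed cell, so material of neighbouring cells could be taken up at that step. RNA of every library went through 3 rounds of amplification by in vitro transcription. The tissue pipette neurons have an extraction text written for TIVA, and that of the cortical tissue neurons mentions hippocampal CA1; the source name was followed in both cases.

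Each single-neuron library is 1 cell and the labels tie no cell to an animal or culture, so every group counts as 1 sample. No test was run, and differences are given by size beside the values or the standard deviation (SD) over libraries. The features carry UCSC known-gene identifiers, of which 0 of 55419 matched the gene tables used here. The label of neuron could therefore not be checked against marker genes, members could not be sorted by function, and no sequence of a member is shown. No feature lengths were used, so a level is compared only for the same feature, or the same set of features, between groups.

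Assigned reads per library ranged from 5.295 to 59.05 M (M for mega), and a count of 0 allows up to 3 reads, worth 0.0508 to 0.567 CPM, which covers counting error only. Several groups stood apart in library composition. The 50 most abundant features took a median of 53.5% of assigned reads in cultured hippocampal TIVA neurons and 40.6% in cultured cortical TIVA neurons, against 15.4% to 32.0% in the other groups. Counted reads that fell in no feature had a median of 67.5% and 68.7% in the cultured hippocampal and cortical pipette neurons and 55.3% in the cultured cortical TIVA neurons, against 18.2% to 28.8% elsewhere. The top-50 share lowers the CPM of all other features in a library, and no-feature reads are outside the library size; their part in the differences below was not tested. As a reference, 10694 features had a mean of at least 5 CPM over all libraries, here called measured features. All 82 members are among them, the lowest with a mean of 13.8 CPM. The measured features were not matched to the members for level. In all 4 cultured cortical TIVA neurons, 64 of the 82 members reached 10 CPM, as did 5838 of the 10694 measured features. The part of level in the differences between members and measured features was not tested.

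The selected set was described first where it was defined, in the hippocampus. Members lay a median of 1.38 above bulk in tissue TIVA neurons (quartiles 1.15 and 1.75) and 1.34 above bulk in tissue pipette neurons (quartiles 1.17 and 1.75) on the log2(CPM + 10) scale. The measured features as a whole lay below bulk, with medians of -0.29 and -0.54. By rule all 82 members were at least 1 higher in each contrast, a size reached by 5.21% of measured features for TIVA, by 5.45% for pipette and by 1.36% for both together. In bulk tissue, fewer cells of a type and less RNA per cell cannot be told apart.

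Most members sat close to the selection limit. The smaller of the 2 differences from bulk had a median of 1.18, reached 1.5 in 14 members and 2 in 1 member, and had a maximum of 2.46. The 3 members nearest the limit stood at 1.001, 1.01 and 1.01, and the 3 features just outside it at 0.996, 0.994 and 0.993. Between 1 and 1.1 there were 25 members, and between 0.9 and 1 there were 45 features outside. For the culture condition, the highest pipette difference was 0.985 among members at least 1 above cultured neurons by TIVA only. Among the features removed, the lowest difference of either method was 1.01. The membership moved with the libraries and the scale: the rule gave 152 features without bulk library 3 and 58 without bulk library 1. It gave 165 with TMM scaling, 124 with DESeq2 size factors and 146 from summed counts, of which 56, 63 and 56 were among the 82.

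Compared cell by cell, members separated tissue neurons from bulk in most but not all cells. In 29 members all 8 tissue neurons lay above all 3 bulk libraries, an arrangement that 0.664% of measured features had. In 27 members 7 of the 8 neurons lay above the highest bulk library, in 19 members 6 did, in 6 members 5 did and in 1 member 3 did. The values that chose the members are the same ones counted here, so these counts describe the set and support nothing beyond it.

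**Figure D1:**
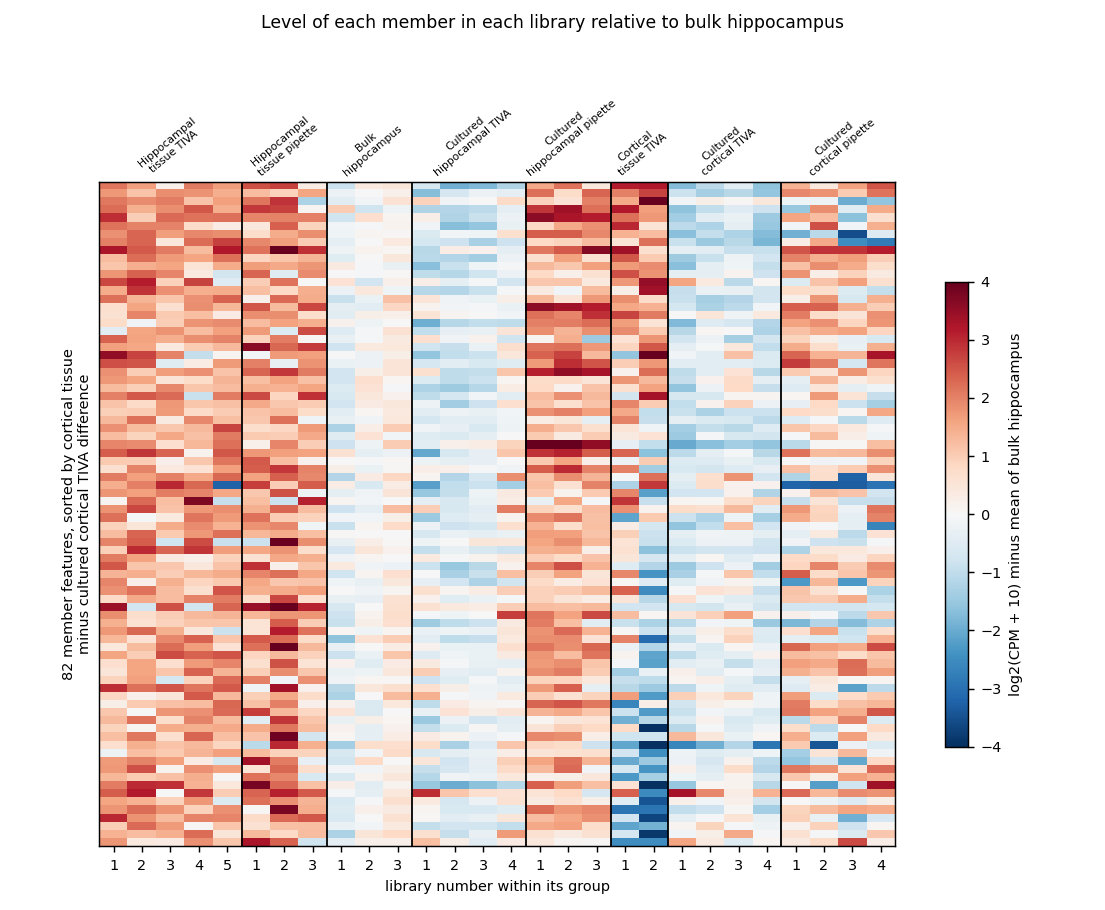
Each row is 1 of the 82 members and each column 1 of the 28 libraries; colour gives log2(CPM + 10) minus the mean of the 3 bulk libraries, with the colour scale ending at -4 and 4. Red covers most of the 8 hippocampal tissue neurons and the 3 cultured hippocampal pipette neurons, pale blue covers most of both cultured TIVA groups, and the 2 cortical tissue neurons run from red at the top to blue at the bottom because rows are sorted by the cortical tissue minus cultured cortical TIVA difference.

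The first named member, uc012bts.1:uc008jet.2:uc008jeu.2, had the largest smaller difference from bulk. In hippocampal tissue TIVA neurons it stood at 242, 132, 100.4, 53.3 and 230.4 CPM, and in tissue pipette neurons at 107, 899 and 188 CPM. Bulk libraries held 12.4, 18.6 and 17.5 CPM. All 8 tissue neurons were above all bulk libraries, and pipette neuron 2 stood far above the other tissue neurons. The group means were 152 CPM (SD 82.4, n = 5), 398 CPM (SD 436, n = 3) and 16.2 CPM (SD 3.29, n = 3), ratios to bulk of 9.38 and 24.6, or 2.46 and 3.41 on the log2(CPM + 10) scale.

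This feature separated the means of collection in culture. Cultured hippocampal TIVA neurons had 2.07, 22.0, 19.3 and 10.2 CPM and cultured hippocampal pipette neurons 101, 132 and 322 CPM. Cultured cortical TIVA neurons had 10.5, 9.11, 3.88 and 3.96 CPM, and cultured cortical pipette neurons 138, 182, 182 and 219 CPM. In each region every pipette cell was above every TIVA cell, and the cortical groups were 3.50 apart on the log2(CPM + 10) scale. The 2 cortical tissue TIVA neurons held 263 and 31.0 CPM, both above the 4 cultured cortical TIVA neurons, by 2.67 on average and by 1.30 to 4.04 when 1 library was left out.

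The second, uc007yqx.1, was at 1043, 261, 642, 598 and 610.2 CPM in hippocampal tissue TIVA neurons and at 513, 529 and 541 CPM in tissue pipette neurons. Bulk libraries held 68.0, 208 and 138 CPM. The lowest tissue neuron, TIVA neuron 2, was still above the highest bulk library. Means of 631 CPM (SD 278, n = 5) and 528 CPM (SD 13.7, n = 3) stood against 138 CPM (SD 70.2, n = 3) in bulk, ratios of 4.57 and 3.82.

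Its highest levels were in culture, not in tissue. Cultured hippocampal pipette neurons held 1618, 1305 and 1193 CPM, a mean of 1372 CPM (SD 220.5, n = 3), all above every tissue neuron. Cultured hippocampal TIVA neurons held 155, 48.5, 63.1 and 105 CPM. Tissue and cultured pipette neurons thus differed by -1.35 on the log2(CPM + 10) scale and tissue and cultured TIVA neurons by 2.63, opposite directions for the same pair of settings. Both cortical tissue TIVA neurons (615 and 443 CPM) were above all cultured cortical TIVA neurons (41.9, 91.4, 103 and 39.6 CPM), by 2.85. Cultured cortical pipette neurons spread over 394, 309, 33.6 and 203 CPM and overlapped the TIVA cells through neuron 3.

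The following 4 members in the same order, left without identifiers, showed how differently members behaved in cortical tissue. The member at rank 3 had a mean of 1614 CPM in hippocampal tissue TIVA neurons (range 453 to 2717), 2384 CPM in tissue pipette neurons (764 to 4737) and 340 CPM in bulk (246 to 406), and stood at 496 and 0.189 CPM in the cortical tissue neurons, the latter the worth of 1 read. The member at rank 5 had 552 CPM (303 to 1030) in tissue TIVA neurons and 127 CPM (73.9 to 185) in bulk, and stood at 65.4 and 0.189 CPM in cortical tissue. In both members the second cortical cell held a single read. The members at ranks 4 and 6, with bulk means of 176 and 74.8 CPM, stood at 146 and 733 CPM and at 111 and 368 CPM in the cortical tissue neurons.

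As a group, the members made up a larger share of the reads in hippocampal tissue neurons than in bulk, which follows from the rule. The culture condition also favours features that are high in cultured hippocampal neurons of at least 1 collection method. The share was 3.83% (SD 0.257, n = 5) in hippocampal tissue TIVA neurons, 4.20% (SD 0.649, n = 3) in tissue pipette neurons and 1.37% (SD 0.366, n = 3) in bulk. Among the groups outside those, it was 3.43% (SD 0.157, n = 3) in cultured hippocampal pipette neurons and 3.33% (SD 0.149, n = 2) in cortical tissue TIVA neurons. Cultured cortical pipette neurons had 2.17% (SD 0.439, n = 4). The shares were lowest in cultured TIVA neurons, 1.08% (SD 0.465, n = 4) in hippocampal and 1.13% (SD 0.440, n = 4) in cortical ones. The libraries thus formed a higher set of 4 groups, from 3.22% to 4.82%, and a lower set of bulk and both cultured TIVA groups, from 0.708% to 1.74%. The cultured cortical pipette cells, from 1.64% to 2.53%, overlapped the top of the lower set. Abundant members weigh most in a share. Without the largest member of each library, the mean share was 2.60% in cortical tissue neurons and 1.11% in bulk. The members' median difference from bulk was -0.01 in cortical tissue neurons. There 29 members were at least 1 higher (5.14% of measured features) and 19 at least 1 lower (50.2%).

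The distances were narrower once abundant features were set aside, members among them. The 50 most abundant features held 3 to 5 members in each hippocampal tissue neuron and 1 to 3 in each cultured TIVA neuron. Over reads outside the 50 most abundant features of each library, the median share of the members became 1.56% in cultured hippocampal TIVA neurons and 1.27% in cultured cortical TIVA neurons, and 1.32% in bulk. The hippocampal tissue neurons kept 2.81% and 3.18%, the cultured hippocampal pipette neurons 2.85%, the cortical tissue neurons 2.75% and the cultured cortical pipette neurons 1.60%. The 4 higher groups, 2.50% to 3.77%, remained above every library of the others, of which the highest had 2.24%. For the hippocampal groups among them this follows in part from the rule, which used their libraries.

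**Figure D2:**
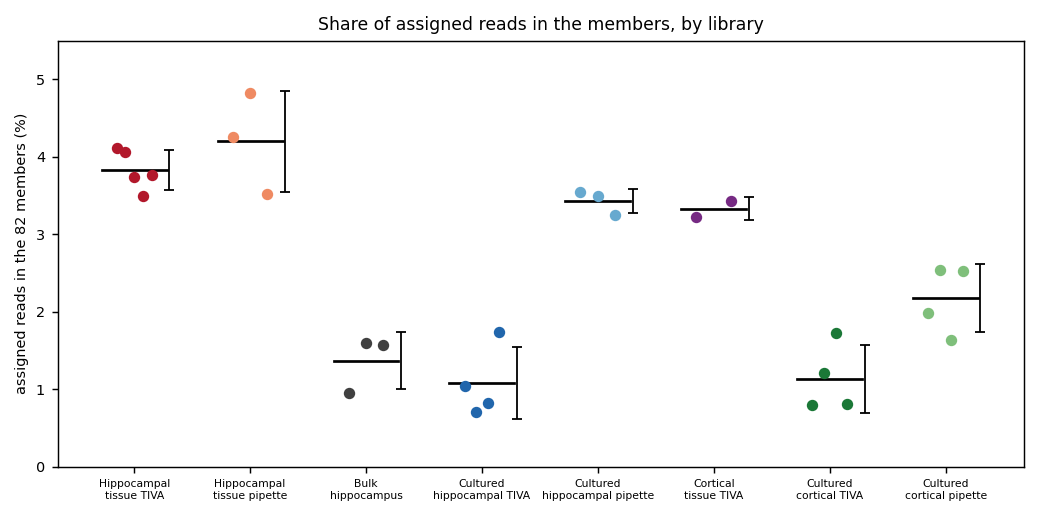
Percentage of assigned reads that fell in the 82 members, 1 point per library, with the group mean as a line and the SD as a bar beside it. Hippocampal tissue neurons, cultured hippocampal pipette neurons and cortical tissue neurons lie between 3.22% and 4.82%, and bulk and the cultured TIVA neurons between 0.708% and 1.74%.

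In the tissue neurons that chose them, members were detected more evenly from cell to cell than the measured features. In the tissue TIVA neurons 78 to 82 members, and in the tissue pipette neurons 79 to 81, reached 10 CPM in each cell. A member at 50 CPM or more in a tissue TIVA neuron was below 1 CPM in another such neuron in a median of 1.39% of cases over pairs of cells (0% to 5.33%), against 8.82% for the measured features. For tissue pipette neurons the median was 1.33%, against 10.5%. The rule favours members that are high in most tissue cells, and the measured features were not matched for level. This evenness therefore describes the set only, and whether any of it lies beyond the selection was not tested. The median SD over cells was still 0.691 for TIVA and 0.893 for pipette neurons on the log2(CPM + 10) scale.

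The methods of collection in hippocampal tissue gave similar members' levels. The tissue TIVA minus tissue pipette difference had a median of -0.02 (quartiles -0.39 and 0.30), with 1 member at least 1 higher (18.0% of measured features) and 4 at least 1 lower (9.15%). Since members had to be high in both groups, that narrow spread follows in part from the rule.

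In hippocampal culture the members divided by the method of collection. Tissue TIVA neurons were at least 1 above cultured TIVA neurons in 71 members (15.6% of measured features), with a median of 1.76. Tissue pipette neurons were at least 1 above cultured pipette neurons in 4 members (6.73%) and at least 1 below in 7 (30.0%), with a median of 0.27. The rule used both contrasts and left out features high in both, so 71 members passed only by TIVA, 4 only by pipette and 7 by neither. The counts moved with the scale: over reads outside the 50 most abundant features 45 members, in place of 71, were at least 1 higher by TIVA, as were 5.75% of measured features in place of 15.6%. By pipette 32 members were at least 1 higher with TMM scaling and 30 with DESeq2 size factors, in place of 4, as were 13.2% and 12.7% of measured features in place of 6.73%.

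Seen from bulk, cultured hippocampal pipette neurons held most members well above it and cultured TIVA neurons held them near it. The pipette minus bulk difference had a median of 1.27 (range 0.03 to 4.48), with 52 members at least 1 higher (10.7% of measured features) and 0 at least 1 lower (10.1%). For the 78 members not above cultured pipette neurons by 1, a difference above 0 is fixed by the rule. The cultured TIVA minus bulk difference had a median of -0.27, with 1 member at least 1 higher (0.552%) and 4 at least 1 lower (12.4%). Its direction turned with the scale, to 0.14 with TMM scaling, 0.31 with DESeq2 size factors and 0.28 over reads outside the 50 most abundant features. The measured median moved alike, from -0.40 to -0.09, 0.04 and -0.01, and the members stood 0.13 to 0.28 above it on all 4 scales.

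Directly compared, cultured hippocampal TIVA neurons lay a median of 1.56 below cultured pipette neurons, with 65 members at least 1 lower (22.4% of measured features) and 1 at least 1 higher (2.81%). Under TMM scaling, DESeq2 size factors and reads outside the 50 most abundant features the members lay at -0.82, -0.75 and -0.91, with 37, 36 and 39 members at least 1 lower, against 6.79%, 5.71% and 8.67% of measured features. The measured features shifted with them, from -0.40 to 0.07, 0.15 and 0.09, so that the members stayed between 0.89 and 1.16 below the measured median. Both groups entered the rule.

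**Figure D3:**
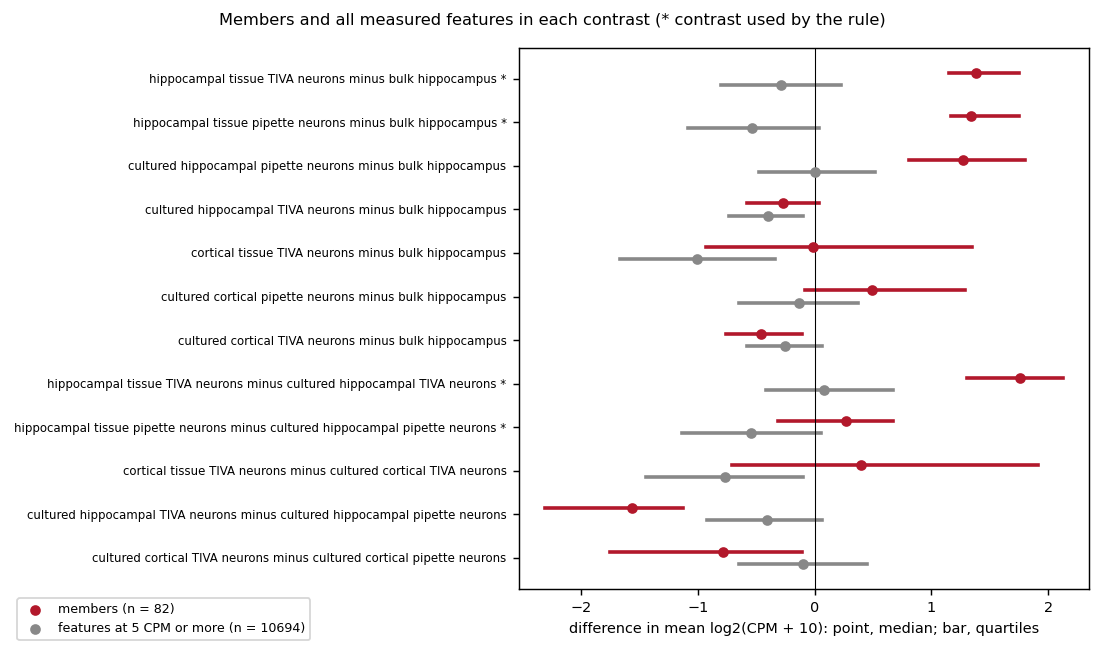
Median (point) and quartiles (bar) of the difference in mean log2(CPM + 10) for the 82 members in red and the 10694 measured features in grey, 1 line per contrast, with a star on contrasts the rule used. Members lie furthest to the right of the measured features where hippocampal tissue neurons are set against bulk (1.38 against -0.29 for TIVA, 1.34 against -0.54 for pipette) or against cultured TIVA neurons (1.76 against 0.08), and furthest to the left in cultured TIVA minus cultured pipette neurons of the hippocampus (-1.56 against -0.40).

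The cortical libraries were outside the selection and gave the first view of the members in other cells. Cultured cortical TIVA and pipette neurons share no library with the hippocampal groups. There too, TIVA neurons held less of the members: the TIVA minus pipette difference had a median of -0.78 (quartiles -1.75 and -0.11), against -0.10 for the measured features. It was at least 1 lower in 38 members, or 46.3%, against 14.1% of measured features, and at least 1 higher in 4 members, or 4.88%, against 8.91%. Taken against the pipette mean, the members' medians in the 4 TIVA cells were -1.20, -0.65, -0.71 and -1.03, all below 0. All pipette cells were above all TIVA cells in 29 members, an arrangement that 7.4% of measured features had.

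The size of this difference, but not its direction, depended on the scale. For the same 82 members the distance from the measured median was -0.69 on CPM, -0.63 with TMM scaling, -0.62 with DESeq2 size factors and -0.68 over reads outside the 50 most abundant features, with 38, 35, 30 and 29 members at least 1 lower. The measured features at least 1 lower were 14.1%, 11.7%, 7.81% and 7.77% on these scales. When the rule itself was applied to DESeq2-scaled values, its 124 features had a median of -0.22. The no-feature share was higher in the pipette cells (median 68.7% against 55.3%) and the top-50 share in the TIVA cells (40.6% against 18.2%), and their part in the difference was not tested.

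The members that were lower by TIVA in cultured cortex were mostly those that were lower by TIVA in cultured hippocampus. Of the 38 members at least 1 lower in cortex, 36 (94.7%) were also at least 1 lower in hippocampus, where they made up 55.4% of the 65. Among measured features 790 were lower in both, 52.2% of the 1512 in cortex and 33.0% of the 2395 in hippocampus. The share at least 1 lower in hippocampus was already 79.3% over all members, against 22.4% over all measured features. The 94.7% and 52.2% are to be read beside these shares. The pairs of groups share no library, and the hippocampal pair entered the rule, which made low values in hippocampal cultured TIVA neurons common among members.

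**Figure D4:**
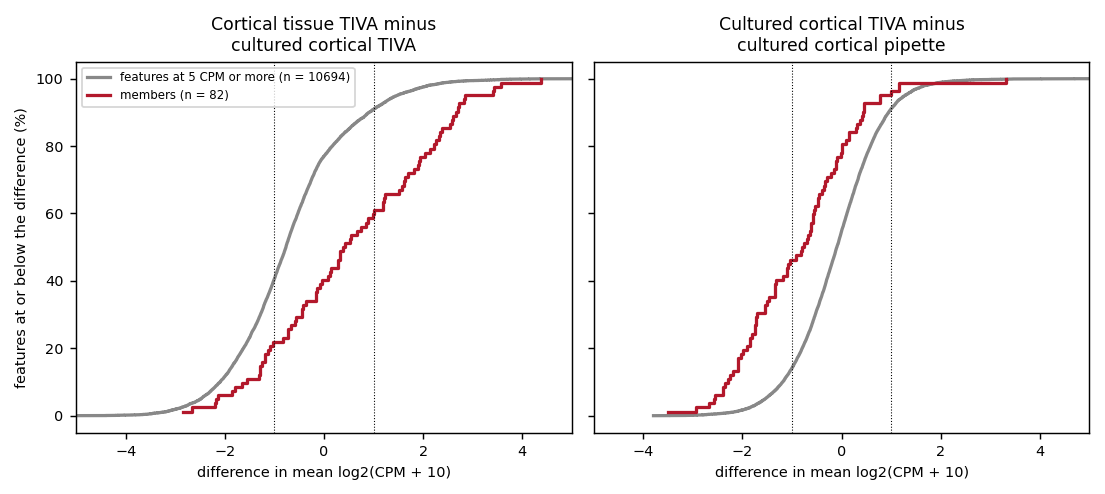
Cumulative percentage of features at or below each difference in mean log2(CPM + 10), members in red and measured features in grey, with dotted lines at -1 and 1, for the cortical contrasts whose libraries the rule did not use. In cortical tissue minus cultured TIVA neurons the members' curve lies to the right (33 of 82 beyond 1), and in cultured TIVA minus pipette neurons it lies mostly to the left (38 of 82 beyond -1).

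The other contrast free of the rule set the 2 cortical tissue TIVA neurons against the 4 cultured cortical TIVA neurons. Members lay a median of 0.40 higher in tissue, with quartiles of -0.71 and 1.92 and a range of -2.85 to 4.37, while the measured features lay at -0.77. At least 1 higher in tissue were 33 members, or 40.2%, against 9.08% of measured features. At least 1 lower were 18 members, or 22.0%, against 40.6%, and 31 lay in between. Both tissue cells were above all cultured cells in 28 members (5.63% of measured features) and below all of them in 12 (51.1%).

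This contrast rests on 2 cells that disagreed. Cortical tissue neuron 1 had 43 members at least 1 above the cultured mean (15.7% of measured features) and 13 at least 1 below (39.6%), with a median of 1.10. Neuron 2 had 33 above (11.6%) and 25 below (50.9%), with a median of -0.23, so the sign of the median turned when neuron 1 was left out. For measured features the medians were -0.71 and -1.02, so that in each cell the members stood above the measured features. The measured features include more features of low level, and the part of level in this distance was not tested. Both cells agreed on 25 members as at least 1 higher and on 7 as at least 1 lower, and took opposite sides in 12. Agreement was counted for members only, so these counts have no share of measured features to be read against.

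Cortical tissue neuron 2 was also the shallowest library of the series, with 5.295 M assigned reads, against 7.893 M in neuron 1. Members at 10 CPM or more numbered 66 in neuron 1 and 48 in neuron 2, 43 in both and 11 in neither. Members below 1 CPM numbered 9 and 19, a level above the 0.380 and 0.567 CPM that a count of 0 allows in these libraries. Among the members at 50 CPM or more in either cell, 2.86% were below 1 CPM in the other when counted from neuron 2 and 16.7% when counted from neuron 1, against 20.9% for the measured features, averaged over both directions.

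Here the scale shifted members and measured features in the same direction but by unlike amounts. The measured median was -0.77 on CPM, -0.63 with TMM scaling and -0.66 with DESeq2 size factors. The members' median was 0.40, 0.81 and 0.96 on these scales. Members stood 1.17 above the measured median on CPM, 1.44 with TMM scaling, 1.62 with DESeq2 size factors and 1.32 over reads outside the 50 most abundant features. With a pseudocount of 1 CPM the distance was 2.30. Members chosen anew with that pseudocount had a median of -0.20, below 0. The 63 features left out by the culture condition had a median of 0.48, with 25 at least 1 higher and 15 at least 1 lower, close to the members' values; the difference between the sets was not tested.

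Each set of members was then followed across the groups, as a median on the log2(CPM + 10) scale. The 33 members at least 1 higher in cortical tissue than in cultured cortical TIVA neurons stood at 8.53 in cortical tissue, 8.10 and 8.11 in the hippocampal TIVA and pipette neurons of tissue, 7.66 in cultured cortical pipette neurons and 6.02 in cultured cortical TIVA neurons. For these members cortical and hippocampal tissue neurons lay close together. The 18 members at least 1 lower stood at 4.42 in cortical tissue, 7.72 and 7.67 in hippocampal tissue, 7.27 in cultured cortical pipette neurons and 6.03 in cultured cortical TIVA neurons. For these, cortical tissue lay below each of the other 4 groups. The sets were split on the cortical tissue minus cultured cortical TIVA difference. High cortical tissue values in the first set and low ones in the second therefore follow in part from the split, and describe the sets only.

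Values below 1 CPM in cortical tissue were mostly those of 1 cell. In 10 of the 18 lower members both cortical cells lay below all cultured cortical TIVA cells. That arrangement held for 51.1% of measured features, and the split favours it among the 18. Of the 18 lower members, 3 were below 1 CPM in both cortical cells and 10 in 1 of them. Of the 33 higher members, 1 was below 1 CPM in a single cell and 0 in both. That 0 is fixed by the split, since a member below 1 CPM in both cells cannot lie 1 above the cultured cells. The counts below 1 CPM were made for members only. Cortical against hippocampal tissue TIVA neurons, a pair whose hippocampal side entered the rule, gave a median of -1.34, with 4 members at least 1 higher (8.0% of measured features) and 44 at least 1 lower (36.6%).

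The first member named for a low value in cortical tissue, uc007cpj.2, had the lowest difference from cultured cortical TIVA neurons and 0 reads in both cortical tissue cells, which allows up to 0.380 and 0.567 CPM. Cultured cortical TIVA neurons held 155, 61.0, 29.1 and 48.1 CPM and cultured cortical pipette neurons 60.7, 82.6, 335 and 56.3 CPM. Every other library of the series held at least 22.0 CPM of it. In hippocampal tissue it stood at 179, 62.8, 59.2, 188 and 109.6 CPM in TIVA neurons and at 527, 275 and 22.0 CPM in pipette neurons, against 32.1, 53.5 and 54.1 CPM in bulk. Pipette neuron 3 was below all bulk libraries. Its differences from bulk, 1.08 for TIVA and 1.61 for pipette, fell as low as 0.883 and 0.781 when a library was left out, below the limit of the rule. In cultured hippocampal neurons it ranged from 30.5 to 117 CPM by TIVA and from 46.9 to 64.4 CPM by pipette.

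The other low member named, uc007kto.1, showed the disagreement of the cortical cells. Cortical tissue neuron 1 held 88.3 CPM and neuron 2 held 0.944 CPM, from 5 reads, while the cultured cortical TIVA neurons held 137, 176, 443 and 142 CPM and the cultured pipette neurons 231, 140.0, 95.4 and 323 CPM. Both tissue cells were below all 8 cultured cortical cells, by 2.67 from the TIVA cells on the log2(CPM + 10) scale and by 1.08 to 4.25 with a library left out. In hippocampal tissue it stood at 409, 365, 418, 738 and 213 CPM in TIVA neurons and at 383, 263 and 361 CPM in pipette neurons. Bulk libraries were spread over 55.4, 209 and 266 CPM, so TIVA neuron 5 and pipette neuron 2 overlapped bulk. Cultured hippocampal neurons ranged from 73.5 to 501 CPM by TIVA and from 193 to 233 CPM by pipette, and overlapped bulk as well.

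**Figure D5:**
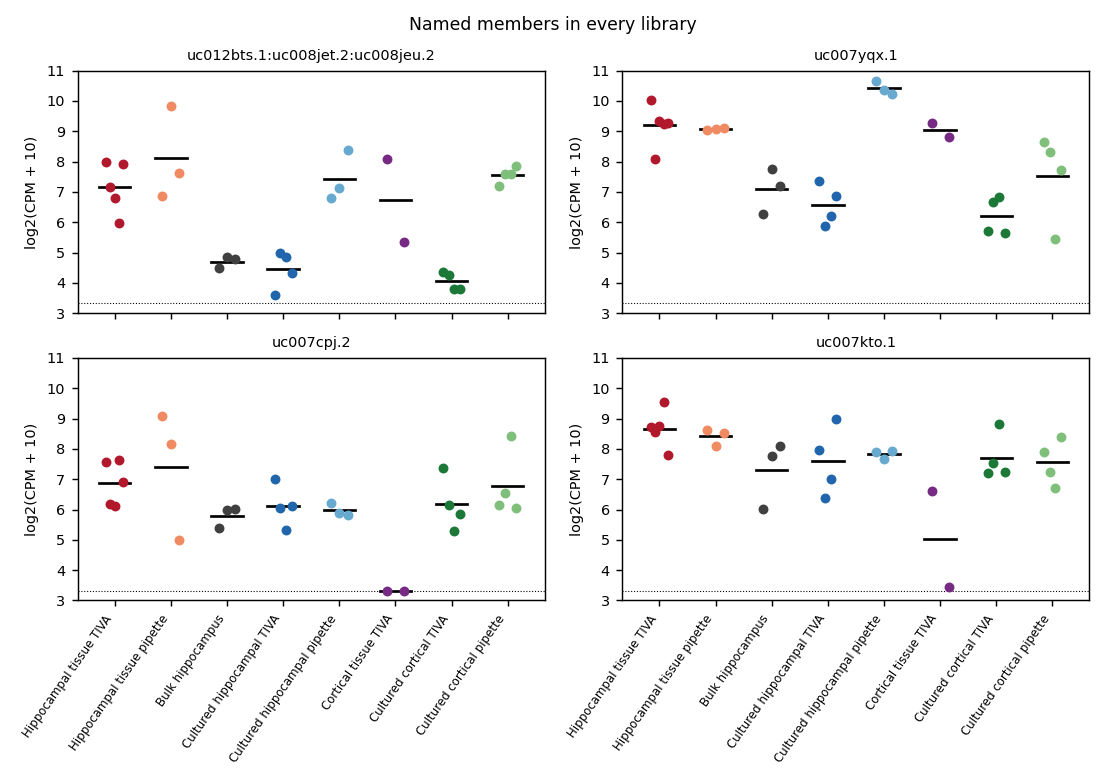
log2(CPM + 10) of the 4 named members in all 28 libraries, 1 point per library, grouped along the horizontal axis, with group means as lines and the value of 0 reads as a dotted line. The upper panels show features that lie low in bulk and both cultured TIVA groups, and the lower panels features whose cortical tissue neurons lie below all cultured cortical neurons.

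Against bulk hippocampus, whose libraries the rule used, the members' median on CPM was above 0 only in cultured cortical pipette neurons among the cortical groups. Cultured cortical pipette neurons had a median of 0.49, with 27 members at least 1 higher (6.78% of measured features) and 3 at least 1 lower (13.3%). Cortical tissue TIVA neurons had a median of -0.01, with 29 higher (5.14%) and 19 lower (50.2%), and neurons 1 and 2 alone gave 0.56 and -0.73. Cultured cortical TIVA neurons had a median of -0.46, with 1 higher (1.17%) and 9 lower (8.02%). The median of measured features was -0.14, -1.01 and -0.25 in these contrasts, so members stood above it by 0.63 and 0.99 in the first and second and below it by 0.21 in the last. The order of the first and second turned with the scale: the members' median was 0.48 in cultured pipette and 0.54 in cortical tissue neurons with TMM scaling, and 0.52 and 1.03 with DESeq2 size factors. With a pseudocount of 1 CPM the members at least 1 lower numbered 14, 31 and 23, against 35.2%, 75.1% and 19.7% of measured features.

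Over all 8 groups, the highest mean of a member was found in hippocampal tissue pipette neurons for 26 members, tissue TIVA neurons for 22, cultured hippocampal pipette neurons for 21, cortical tissue neurons for 10 and cultured cortical pipette neurons for 3. It was found in bulk or a cultured TIVA group for 0 members, which the rule leaves no room for in bulk. The lowest mean was in cortical tissue neurons for 30 members, cultured cortical TIVA neurons for 26, cultured hippocampal TIVA neurons for 15, cultured cortical pipette neurons for 8 and bulk for 3. A member's group mean reached 50 CPM in 77 and 78 members in the hippocampal tissue groups, 72 in cultured hippocampal pipette neurons, 64 in cultured cortical pipette neurons and 50 in cortical tissue neurons. Bulk had 48, and the cultured TIVA groups 44 and 42. These counts were made for members only. Low values in cortical tissue were common among measured features. There 50.2% lay at least 1 below bulk and 40.6% at least 1 below cultured cortical TIVA neurons. High means in the hippocampal tissue groups are favoured by the rule.

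The identifiers of the members were built much like those of the measured features. Names that join several known-gene identifiers made up 63.4% of members, against 68.6% of measured features, and names joining 5 or more made up 13.4%, against 14.3%. No pair of members stood in neighbouring rows of the tables.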

How the data were processed

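The authors deposited raw read counts, whole numbers in a file for each library, over 28661 features and 5 summary lines. Per the submitters' processing notes, CASAVA 1.8.1, HTSeq and the mouse build mm9 were used. Not given in the sources used here were the aligner, the overlap setting and the strandedness. Reads of overlapping, antisense or near-identical features cannot be told apart for that reason. Of all counted reads, 15.8% to 81.1% fell in no feature and 0.589% to 10.9% were ambiguous. These lines were left out of library sizes.

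Counts were scaled to CPM and log2(CPM + 10) was averaged by group with Python 3.11.15, numpy 2.4.6 and pandas 2.3.3, in steps tested on simulated data. R 4.3.3 with edgeR 4.0.16 (TMM) and DESeq2 1.42.0 gave scaling factors for alternatives only. Other alternatives were a pseudocount of 1 CPM, a filter at 5 CPM, summed counts, thinning to the smallest library, a step of 2, the rule without its culture condition, and each library left out in turn. The members and lists were chosen with earlier results of these data known. Lists of marker and pathway genes were not used because no identifier was paired with a gene name.

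Members were named by a rule. Those at 20 CPM or more in both hippocampal tissue groups, with all 8 tissue neurons above all bulk libraries, were ranked by the smaller difference from bulk. The first 2 of the 29 were named. The other 2 names are the lowest in cortical tissue minus cultured cortical TIVA neurons, of 10 members at 20 CPM or more in the cultured cells with all cultured above all tissue cells. Between libraries of a group the chi-square per degree of freedom was at least 45.7, so none were merged.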

Additional observations from a re-analysis of the deposited data

Results flagged for a closer look

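The 4 groups of 4 or 5 cells were examined for the 4 named members, the members' share of reads, the number of members at 10 CPM or more and the members' median level. In 2 of these 28 sets a single cell stood far from the others; chance gives such a result in about 1 of 20 sets. The feature uc007cpj.2 stood at 335 CPM in cultured cortical pipette neuron 3, and its gap to the next cell took 0.905 of the range of that group. The feature uc007kto.1 stood at 443 CPM in cultured cortical TIVA neuron 3, with a gap of 0.871 of the range. In both features the cortical tissue neurons lay below all cultured cortical cells. The naming rule required this for the TIVA cells, and leaving out a cultured cell cannot change it.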

How the results depend on the processing

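The number of features that met the rule, 82, was 165 with TMM scaling, 124 with DESeq2 size factors, 146 from summed counts, 145 without the culture condition and 1 with a step of 2; leaving out 1 library at a time gave 58 (without bulk library 1) to 152 (without bulk library 3). Of the 82, 17 were found again without each of the 18 libraries of the rule in turn, 36 under each of 7 other settings and 12 under all of these. With members chosen anew each time, the cultured cortical TIVA minus pipette median of -0.78 became -0.22 with DESeq2 size factors, and -0.97 to -0.55 without a library; the cause was not tested. Cortical tissue minus cultured cortical TIVA neurons, 0.40, gave -0.23 to 1.10 without a library. The medians against bulk ran from -0.73 to 0.56 for cortical tissue, -0.52 to -0.14 for cultured cortical TIVA and 0.34 to 0.81 for cultured cortical pipette neurons. No paired analysis was possible because the labels number no replicates: the numbers used here come from accession order and tie no library to another. The limits are 2 cortical tissue cells, of 7.893 and 5.295 M assigned reads, single cells without named animals, and no gene names.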

Other observations

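The 17 members found again without each library of the rule had a higher median in cortical tissue than the other members. This rests on the 2 cortical tissue cells, which disagreed. The cortical tissue minus cultured cortical TIVA difference of the 17 had a median of 0.99, with 8 at least 1 higher and 2 at least 1 lower. The other 65 had a median of 0.29, with 25 and 16. Of measured features 9.08% were at least 1 higher and 40.6% at least 1 lower. In cultured cortical TIVA minus pipette neurons both sets were alike in size, -0.76 and -0.81, with 8 of 17 and 30 of 65 at least 1 lower. No test of these differences was run.

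The 63 features left out by the culture condition took a larger share of reads than the members in every hippocampal and cortical tissue neuron. Their mean share was 5.79% (SD 0.679, n = 5) in hippocampal tissue TIVA neurons, 8.52% (SD 1.36, n = 3) in tissue pipette neurons and 10.5% (n = 2) in cortical tissue TIVA neurons. In cultured hippocampal pipette neurons, where the members took 3.43%, they took 1.86% (SD 0.393, n = 3). The culture condition decided which features went to which set, so the values describe the sets.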
